A study of Bos taurus with 10 samples.

Results

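The immediate early genes FOS, JUN and EGR1 were followed in longissimus muscle, the long muscle of the back, of 10 steers. The 3 members were the rows of the deposited gene count table with the identifiers ENSBTAG00000004322 (FOS), ENSBTAG00000004037 (JUN) and ENSBTAG00000010069 (EGR1). All 3 were present among the 16963 rows of the table, and all 3 passed the expression filter, which kept 12295 genes. The symbols come from the definition of this set of genes, because the file gives identifiers only.

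The animals were male Angus x Simmental crosses aged 385 ± 5 days, and each library came from 1 steer. During lactation 5 of the mothers ate a diet with dried distillers grains and solubles (DDGS), and 5 ate the control diet labelled SBM, giving 2 groups of 5 offspring. The steers were grown offspring, so the diet was that of the mother and not of the sampled animal at the time of sampling. The labels give no sire, no sampling method, no time from sampling to freezing and no sequencing batch. The 55 symbols listed for related response genes, their upstream factors and heat shock genes, and the markers of muscle and other cell types, could not be paired with identifiers here. The labelled tissue was therefore not checked against its markers.

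Immediate early genes are transcribed quickly after a stimulus without the need for new protein, and their transcripts are short-lived. FOS and JUN encode leucine zipper proteins that pair to form the transcription factor AP-1, and FOS needs such a partner because it does not pair with itself. EGR1 encodes a zinc finger transcription factor induced by growth factors and by mechanical stress. In skeletal muscle, contraction, stretch and injury of the tissue are known to raise all 3 transcripts.

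The libraries held 16942156 to 24936741 counts, of which the 2 most abundant genes took 48.9% to 54.1%. The lowest value in the table was 1, and 21.8% of all values stood there, but 0 of the 30 values of FOS, JUN and EGR1 did. Levels are given as CPM, a gene's counts relative to the library total, scaled by trimmed mean of M values (TMM) library sizes. Intervals on single CPM values are exact Poisson 95% intervals, which cover counting error only and not the spread between animals. Amplified reads are not independent molecules, so these intervals can be too narrow. They also take the listed counts as they stand, although no value lies under 1. In bulk muscle, a change in the cells that carry a transcript and a change of transcript per cell cannot be told apart.

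FOS differed far more between animals than between diets. In the DDGS group, replicates 1 to 5 had 3.44, 132, 116, 7.55 and 163 CPM. In the SBM group, replicates 1 to 5 had 12.9, 16.3, 270, 55.2 and 4.25 CPM. Both groups thus held animals with low and with high FOS, and their ranges overlapped almost completely. The highest animal, SBM replicate 3 with 5570 counts, stood 78.5-fold above the lowest, DDGS replicate 1 with 82 counts, and the counting intervals of these animals were 263 to 277 CPM and 2.73 to 4.27 CPM. Only 1 of the 10 animals lay within 2-fold of the median of 35.7 CPM. The widest step between neighbouring animals on the log2 scale was 1.76, between 16.3 and 55.2 CPM, with 5 animals on either side of it, and the next widest was 1.07.

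JUN was the steadiest of the members. In the DDGS group, replicates 1 to 5 had 30.1, 59.9, 35.7, 30.0 and 51.1 CPM. In the SBM group, replicates 1 to 5 had 73.1, 79.7, 44.2, 36.1 and 21.5 CPM. The SBM group held both the highest animals, replicates 1 and 2, and the lowest, replicate 5, and the DDGS animals lay between them. The highest level was 3.71-fold the lowest, and all 10 animals lay within 2-fold of the median of 40.1 CPM.

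EGR1 was covered by only 13 to 132 counts per library. In the DDGS group, replicates 1 to 5 had 0.545, 1.20, 4.28, 3.75 and 6.02 CPM. In the SBM group, replicates 1 to 5 had 1.04, 1.16, 5.72, 7.07 and 2.36 CPM. In each group replicates 1 and 2 were the lowest animals, and the 4 animals with these numbers, at 0.545 to 1.20 CPM, lay below the other 6, at 2.36 to 7.07 CPM. The labels give these numbers no meaning beyond telling animals apart. The highest animal stood 13.0-fold above the lowest, and the counting intervals of this pair, 5.92 to 8.39 CPM and 0.290 to 0.932 CPM, did not meet. Among the 4 low animals the counting intervals overlapped, for example those of replicate 1 of the DDGS group (0.290 to 0.932 CPM) and replicate 1 of the SBM group (0.615 to 1.64 CPM).

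**Figure D1:**
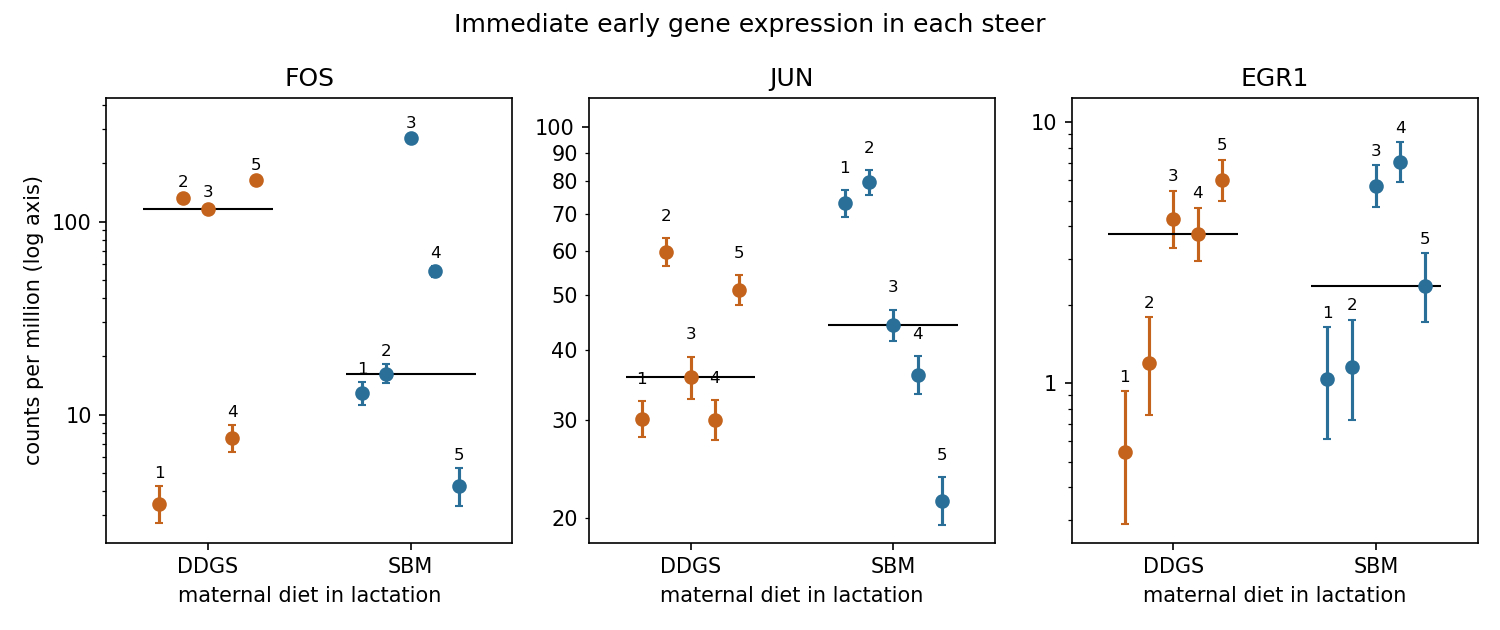
CPM of FOS, JUN and EGR1 in each steer, on log axes that differ between panels, by maternal diet; digits are replicate numbers, bars are exact Poisson 95% intervals of the count and the horizontal line is the median of 5 animals. FOS runs from 3.44 to 270 CPM, JUN from 21.5 to 79.7 CPM and EGR1 from 0.545 to 7.07 CPM, and the diets overlap in every panel.

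The spread between animals was next set against that of the other genes, as a description without a test. The standard deviation of log2 CPM over the 10 animals was 2.32 for FOS, 0.61 for JUN and 1.22 for EGR1, where the median of all 12295 tested genes was 0.57. The spread of FOS exceeded that of 99.4% of tested genes. Low counts spread more on a log scale, so each member was also compared with genes whose mean CPM lay within 2-fold of its own. Among 1101 such genes, with a median standard deviation of 0.26, only 7 spread at least as widely as FOS. JUN was wider than 95.4% of 1876 genes of like level, whose median was 0.29. EGR1 was wider than 74.5% of 4175 genes of like level, whose median was 0.81. The biological coefficient of variation fitted within the diet groups by edgeR was 1.31 for FOS, 0.39 for JUN and 0.71 for EGR1, against a median of 0.44. By this measure, JUN was below the median of all genes, which include many with low counts.

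**Figure D2:**
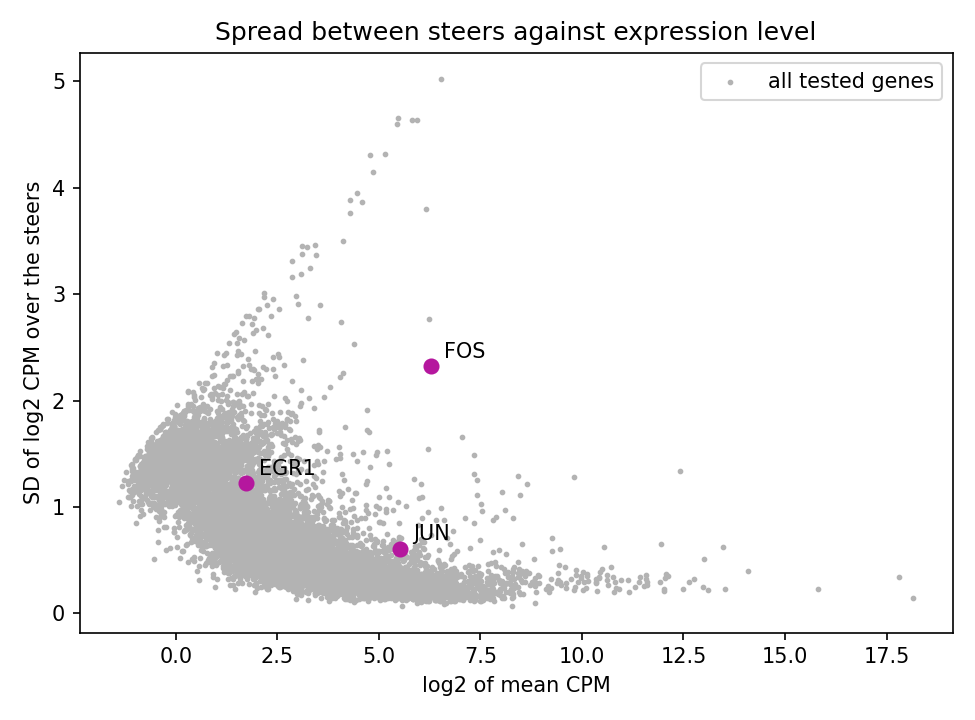
Standard deviation of log2 CPM over the 10 steers (vertical axis) against the log2 of mean CPM (horizontal axis), with 1 grey point per tested gene and the members in colour. FOS, at 2.32, lies well above most genes of like level, JUN, at 0.61, at the upper edge of them, and EGR1, at 1.22, within their bulk.

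The diet means held a small part of this spread. Of the variance of log2 CPM over the 10 animals, the difference between the diet means held 1.09% for FOS, 3.12% for JUN and 0.431% for EGR1.

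For FOS the mean was 84.6 ± 74.2 CPM in DDGS and 71.7 ± 112.6 CPM in SBM (SD, n = 5 each), and the medians were 116 and 16.3 CPM. On the log2 scale the fitted difference, DDGS over SBM, was 0.24 ± 1.35 (standard error; edgeR quasi-likelihood, Benjamini-Hochberg adjusted p = 0.998). Its unadjusted 95% interval ran from 0.137-fold to 10.1-fold, so it included differences of several fold in either direction. The difference of mean log2 CPM was 0.46 (exact two-sided permutation p = 0.786, n = 5 each). The value rested on single animals. Without SBM replicate 3 the SBM mean was 22.2 ± 22.6 CPM (SD, n = 4) and the log2 fold change was 1.93 (edgeR adjusted p = 0.999). The sign turned without DDGS replicate 5, with a log2 fold change of -0.15, and without SBM replicates 1, 2 or 5, with values of -0.03, -0.02 and -0.08.

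JUN averaged 41.3 ± 13.5 CPM in DDGS and 50.9 ± 24.8 CPM in SBM (SD, n = 5 each). The fitted log2 difference was -0.30 ± 0.34 (standard error; edgeR adjusted p = 0.996), with an interval that ran from 0.483-fold to 1.37-fold. The difference of mean log2 CPM was -0.20 (exact two-sided permutation p = 0.611, n = 5 each). The difference thus lay within the spread between animals. Leaving out 1 library at a time kept the sign, with log2 fold changes of -0.13 and -0.08 without SBM replicates 1 and 2, -0.47 without DDGS replicate 2 and -0.50 without SBM replicate 5. With limma voom and a weight for each library it was -0.54 (unadjusted p = 0.062, adjusted p = 0.875).

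EGR1 averaged 3.16 ± 2.26 CPM in DDGS and 3.47 ± 2.76 CPM in SBM (SD, n = 5 each). The fitted log2 difference was -0.14 ± 0.65 (standard error; edgeR adjusted p = 0.998), with an interval that ran from 0.355-fold to 2.33-fold. The difference of mean log2 CPM was -0.15 (exact two-sided permutation p = 0.849, n = 5 each). The sign turned without DDGS replicates 1 or 2, with log2 fold changes of 0.13 and 0.07, and without SBM replicates 3 or 4, with values of 0.11 and 0.30.

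None of the 3 members passed the test, and neither did any other gene: 0 of 12295 genes, 0%, had an adjusted p under 0.05 in edgeR's quasi-likelihood test. Before adjustment 460 genes, 3.74%, had a p under 0.05, and no member was among them. With DESeq2, 15 of the 13807 genes given an adjusted p were called, 0.109%. Limma voom with a weight for each library called 0. No member was called by either. The share of genes with an unadjusted p under 0.05 was 7.25% with DESeq2 and 5.36% with limma voom. In the edgeR alternatives it ran from 2.77%, without DDGS replicate 2, to 7.99%, without the expression filter. The smallest p that 5 against 5 animals can give in the permutation test is 0.00794. Over all tested genes the fold changes had a median of -0.01 on the log2 scale.

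**Figure D3:**
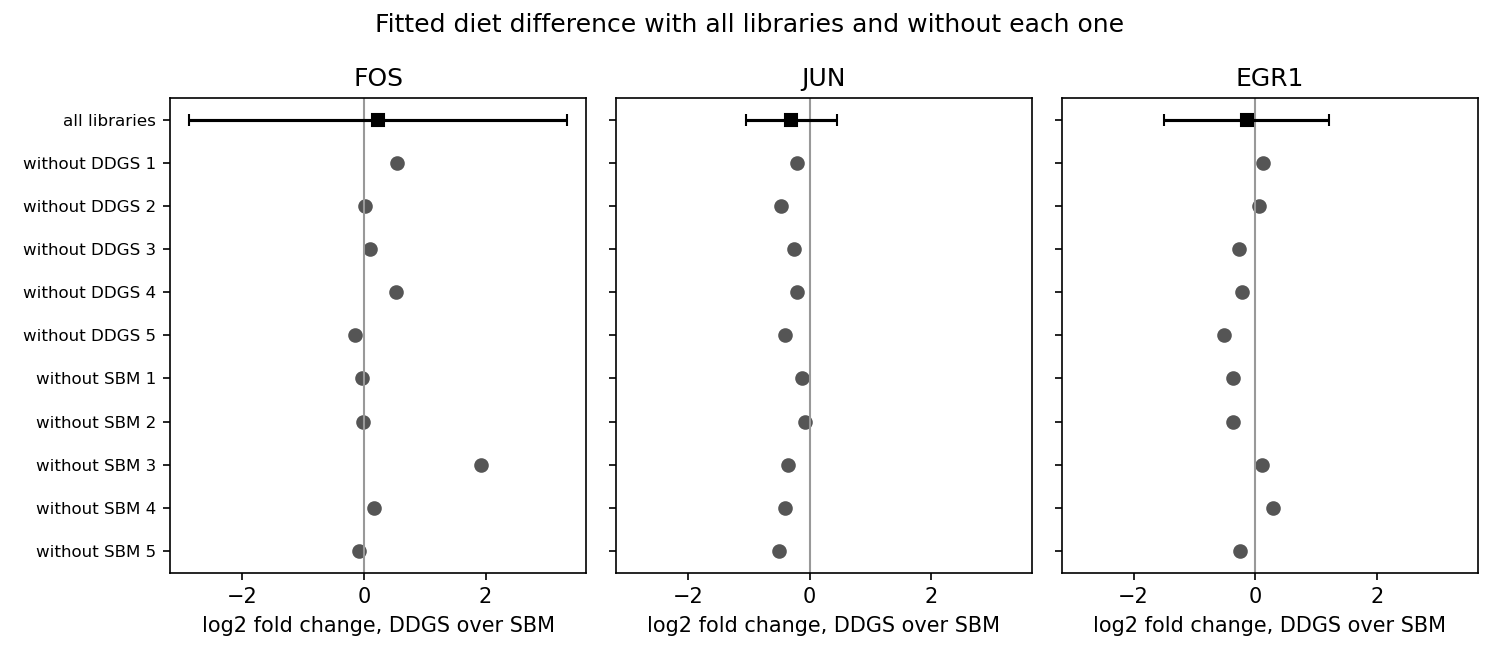
Fitted log2 fold change, DDGS over SBM, of FOS, JUN and EGR1 with all libraries (square, with its unadjusted 95% interval) and without each library in turn (circles, labelled by diet and replicate number). The FOS value moves from 0.24 to 1.93 without SBM replicate 3, JUN stays below 0 throughout, and EGR1 lies on either side of 0.

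Whether the members varied together was examined over the 10 animals, with log2 CPM and 3 pairs of genes, whose p-values were adjusted over these pairs. FOS and EGR1 gave the highest correlation. Both were above their medians in DDGS replicates 3 and 5 and SBM replicates 3 and 4, and both below in DDGS replicate 1 and SBM replicates 1, 2 and 5, so that 8 of 10 animals lay on the same side for both. DDGS replicate 2 departed most from this, with 132 CPM of FOS and only 1.20 CPM of EGR1. Pearson's r was 0.586 (permutation p = 0.0757, adjusted p = 0.227) and Spearman's rho 0.624 (permutation p = 0.0589, adjusted p = 0.177). Without DDGS replicate 1 and SBM replicate 3, the animals farthest from the FOS median, r was 0.331 (permutation p = 0.403). These are the lowest and the highest animal in FOS, and a narrower range of FOS can lower r by itself. Without DDGS replicate 1 alone r was 0.434, and without SBM replicate 3 alone 0.514. Without DDGS replicate 2 it was 0.741 (permutation p = 0.0277, adjusted p = 0.0831). As deviations from the diet means, r was 0.597.

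FOS and JUN, the partners in AP-1, gave r = 0.370 (permutation p = 0.287, adjusted p = 0.43) and rho = 0.479 (permutation p = 0.168, adjusted p = 0.252). Only 6 of 10 animals lay on the same side of both medians. SBM replicates 1 and 2 had the highest JUN, 73.1 and 79.7 CPM, with FOS at 12.9 and 16.3 CPM. Without DDGS replicate 1 and SBM replicate 3, r was 0.315 (permutation p = 0.437). Leaving out 1 animal at a time gave r from 0.168, without SBM replicate 5, to 0.526, without SBM replicate 2, and 0.522 without SBM replicate 1.

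JUN and EGR1 gave r = -0.257 (permutation p = 0.464, adjusted p = 0.464) and rho = -0.164 (permutation p = 0.655, adjusted p = 0.655). Without SBM replicates 2 and 5, the animals farthest from the JUN median, r was -0.199 (permutation p = 0.628). Without DDGS replicate 1 it was -0.539. Leaving out 1 animal at a time gave r from -0.539 to -0.125 and rho from -0.45 to 0.0333. Over replicates 3, 4 and 5 of both diets alone r was 0.859 and rho 0.829, and r of FOS and JUN was 0.91. These 6 animals are those with low JUN to EGR1 count ratios, at most 9.11. They were singled out after that ratio had been seen, so the values are a description and no test. A narrow range of that ratio ties JUN to EGR1, so r of this pair there cannot show whether the sign over all 10 animals is stable. Over all 10 animals no pair passed the test after adjustment, which does not show that the genes varied independently.

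**Figure D4:**
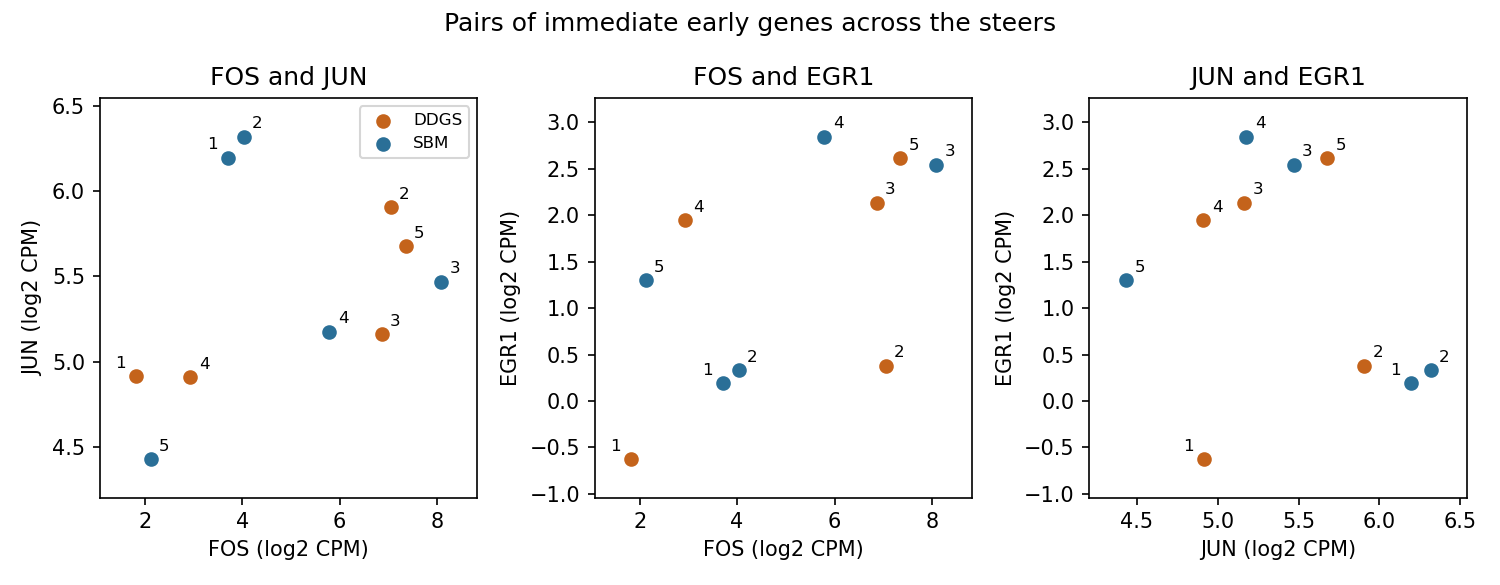
Log2 CPM of each pair of members over the 10 steers, with 1 point per steer, coloured by maternal diet and labelled with its replicate number. In the FOS and EGR1 panel DDGS replicate 2 lies apart at high FOS and low EGR1, and in the JUN and EGR1 panel replicates 1 and 2 of both diets lie below the other 6 animals.

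Ratios of counts within a library do not depend on how libraries are scaled, and they showed that the members did not keep a fixed proportion. The FOS to EGR1 count ratio ran from 1.80 in SBM replicate 5 to 111 in DDGS replicate 2, and the FOS to JUN ratio from 0.114 in DDGS replicate 1 to 6.11 in SBM replicate 3. Their highest values were 61.5 and 53.4 times the lowest. The JUN to EGR1 ratio was 50.0 to 70.5 in replicates 1 and 2 of both diets and 5.10 to 9.11 in the other 6 animals, with no animal between. This division was noticed after the values had been seen and has no label behind it. JUN overlapped between these animals, at 30.1 to 79.7 and 21.5 to 51.1 CPM, and so did FOS, at 3.44 to 132 and 4.25 to 270 CPM. What sets these animals apart was not tested.

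The members were also compared with 3 measures of the libraries, the total count, the number of genes listed at 1 and the share of counts held by the 2 most abundant genes. Of the 9 relations, the strongest was that of EGR1 with the total count (r = -0.572, permutation p = 0.0655, adjusted p = 0.59, rho = -0.152 with permutation p = 0.683, 10 animals). It rested on DDGS replicates 1 and 4, the libraries with the farthest totals, without which r was -0.149. The others had r between -0.248 and 0.340 (permutation adjusted p = 0.925 each, over 9 relations). Without DDGS replicates 1 and 4, r of JUN with the total count was 0.682, against 0.105 with all 10 libraries. Without DDGS replicate 3 and SBM replicate 4, r of EGR1 with the share of the 2 most abundant genes was -0.648, against 0.046 with all. DDGS replicate 3 had 5078 genes listed at 1, the most of any library, and was at 116 CPM of FOS. SBM replicate 2 had 2524, the fewest, and was at 16.3 CPM. Other libraries went the other way: SBM replicate 3 had 2882 and was at 270 CPM, and SBM replicate 1 had 4353 and was at 12.9 CPM. Over all 10 libraries r of FOS with the number of genes listed at 1 was 0.120 and rho -0.067. How much handling of the animal or of the tissue contributed was not tested, since no measure of either accompanies these data.

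The genes most like the members were sought by the correlation of log2 CPM over the 10 libraries with the mean of the members' standardised values, among the 7214 genes that averaged 5 CPM or more. The 2 highest are given by identifier, with values that describe a search over many genes and carry no test. ENSBTAG00000047752 had r = 0.936, ran from 3.06 CPM in DDGS replicate 1 to 72.2 CPM in DDGS replicate 2, and followed FOS (r = 0.928) more closely than JUN (0.620) or EGR1 (0.415). ENSBTAG00000007895 had r = 0.923 and a much narrower range, from 13.2 CPM in DDGS replicate 1 to 28.5 CPM in DDGS replicate 5. It too followed FOS (r = 0.873) more closely than JUN (0.523) or EGR1 (0.541). Taken singly, FOS correlated above 0.9 with 4 of the 7214 genes, JUN with 2 and EGR1 with 1. Correlations below -0.9 numbered 1 for FOS, 4 for JUN and 0 for EGR1.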

How the data were processed

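The authors deposited counts of reads for each Ensembl gene, with a column for each animal. No value lies under 1, so the counts may have been changed after counting, and how is not known here. HTSeq 0.5.3p7, TopHat2 2.0.9 with Bowtie2, FastQC 0.10.1 and the UMD3.1 assembly appear in the submitters' processing notes. The labels' protocols name the TruSeq Stranded Total RNA kit. The strand setting and annotation release were not given in the sources used here, so whether reads of overlapping or antisense genes were told apart is not known. The reference table used here lists 0 Ensembl identifiers, so identifiers could not be paired with symbols and no coordinates are given. All genes were fitted with edgeR 4.0.16 (R 4.3.3): TMM factors, default filter, robust quasi-likelihood test, diet as the only term, Benjamini-Hochberg adjustment over 12295 genes, threshold 0.05. Standard errors came from the coefficient and its F statistic. Correlations used log2 CPM with a prior count of 2 and 100000 permutations. Single differences used exact permutation over 252 assignments. The fit was tested on simulated data. Alternatives covered scaling, filters, prior count, values of 1 set to 0, single libraries and the replicate number as a block. They also covered DESeq2 1.42.0 and limma 3.58.1, whose voom fit gave each library a quality weight. Named genes were the members and the 2 most like them. The members, lists and tests were chosen with earlier results of these data known.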

Additional observations from a re-analysis of the deposited data

Results flagged for a closer look

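FOS in SBM replicate 3, at 270 CPM, lay far from the other 4 SBM animals, which had 4.25 to 55.2 CPM. On the log2 scale it did not stand apart in this way. The number of genes listed at 1 in DDGS replicate 3 was 5078, against 3022 to 3528 in the other DDGS libraries. These were the only single animals far from the rest of their group, by Dixon's criterion, among 18 groups of 5 values examined, and chance gives about 1 in 20.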

How the results depend on the processing

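Counts of 13 to 132 limit EGR1, and 5 animals a diet limit all 3 genes. Of 63 alternative fold changes of the members, 54 kept their direction and all 63 stayed above an adjusted p of 0.05. The 9 that turned were 5 of 21 for FOS and 4 of 21 for EGR1. The 63 include a threshold of 0.10 and a non-robust test, which left the fold changes as in the main fit. With limma voom and a weight for each library the log2 fold changes were -0.41 for FOS, -0.54 for JUN and -0.42 for EGR1. The FOS value had the opposite sign to that of the main fit, 0.24. Leaving out single libraries gave log2 fold changes of -0.15 to 1.93 for FOS, -0.50 to -0.08 for JUN and -0.52 to 0.30 for EGR1, and differences of mean log2 CPM of -0.20 to 1.31, -0.48 to -0.00393 and -0.48 to 0.33. Over all genes DESeq2 called 15, and 0 to 1 were called without single libraries, the 1 without DDGS replicate 4. The cause was not tested. Over all genes, libraries with the same number were not alike as pairs. Their r was -0.0704 to 0.0694, and 2 of 10 libraries correlated best with their own number. This check looks at single numbers only. It cannot address the division of replicates 1 and 2 from 3 to 5 in EGR1 and in the JUN to EGR1 ratio. With the replicate number as a block the log2 fold change was 0.05 for FOS, -0.22 for JUN and -0.18 for EGR1, and 0 genes were called. Among the correlations of the members, all 42 values of Pearson's r from other scalings, another prior count, deviations from the diet means and single libraries left out kept their sign and missed the threshold, and rho of JUN and EGR1 was -0.45 to 0.0333 without single libraries. Relative to library totals, r of EGR1 with the share of the 2 most abundant genes was -0.0429, against 0.0461. Over replicates 3, 4 and 5 of both diets alone, chosen after the JUN to EGR1 ratio had been seen and so a description only, r was 0.91 for FOS and JUN, 0.79 for FOS and EGR1 and 0.859 for JUN and EGR1, the last with rho 0.829. For rho of FOS with JUN and of JUN with EGR1 there, the adjusted permutation p was 0.0879 each. For Pearson's r of these pairs it was 0.0293 and 0.0434. The values for r lie under 0.05 and those for rho do not, but none is a test, since these animals were picked after the values had been seen. For JUN and EGR1, the ratio that picked the animals also ties the genes to each other.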
